A study of Mus musculus with 4 samples.

Results

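The 8 keratin genes that mark the layers of the mouse epidermis (Krt1, Krt2, Krt5, Krt9, Krt10, Krt14, Krt15 and Krt77) were followed through the keratinocytes of regenerating digits. They were taken by gene symbol from the 33696 genes of the count matrices, where 8 of 8 were found, and they are 8 of the 53 keratin genes measured. The data were single-cell RNA-Seq (scRNA-Seq) libraries of droplet-captured cells, where a unique molecular identifier (UMI) tags each transcript that is read. The 4 libraries were each made from the pooled digits of 10 female C57BL/6 mice aged 6 to 8 weeks, with the tip of the terminal phalanx (P3) removed from some of the collected hind digits. In the first pair, mice ate chow with SAR131675, an inhibitor of the lymphatic growth factor receptor VEGFR3, at 30 mg/kg, or chow without it, for 8 days by the labels. The study's methods start the diet before amputation, so that what the 8 days count is not settled. The paper's text places the scRNA-Seq of this pair at 8 days after amputation, and a figure legend gives an earlier day. In the second pair, lymph nodes were removed from an extremity (LNR) and the opposite extremity had sham surgery. The labels call both controls untreated, give no time after amputation, and give every library a batch number of its own, so that batch and condition cannot be told apart. With 1 library per condition no test across samples was possible, and every interval below is a 95% interval that covers counting error only.

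Keratins are the intermediate filament proteins of epithelia, and each filament is built from pairs of a type I and a type II chain. Dividing keratinocytes at the base of the epidermis make Krt5 (type II) with Krt14 (type I), and Krt15 is a further type I chain of basal and hair follicle cells. When a keratinocyte leaves the basement membrane it switches to Krt1 (type II) with Krt10 (type I), the pair of the spinous and granular layers. Krt2 is a type II chain of the upper suprabasal layers, Krt9 is the type I chain of the thick skin of palms and soles, and Krt77 is a type II relative of Krt1. The 4 type I members lie together on chromosome 11 and the 4 type II members on chromosome 15, all on the minus strand, in the GENCODE annotation of GRCm38.

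Promoter sequences from RefSeq (build GRCm38.p6) were used for 5 of the 8 genes, and the stretch from 80 bases before the start of transcription to 20 bases after it is shown for them because the members split into basal and suprabasal groups. Capitals mark a TATA match, with the bases that extend it, that begins 40 to 20 bases before the start. The letters TATA read the same on both strands. The Krt14 entry of the table begins 1518 bases inside the annotated gene and was not used.
Krt5: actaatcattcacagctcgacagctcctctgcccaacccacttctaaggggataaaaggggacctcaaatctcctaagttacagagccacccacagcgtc
Krt10: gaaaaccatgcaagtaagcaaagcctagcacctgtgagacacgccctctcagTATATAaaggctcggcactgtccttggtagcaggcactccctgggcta
Krt2: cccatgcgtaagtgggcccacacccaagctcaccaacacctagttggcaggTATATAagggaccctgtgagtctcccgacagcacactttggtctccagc
Krt9: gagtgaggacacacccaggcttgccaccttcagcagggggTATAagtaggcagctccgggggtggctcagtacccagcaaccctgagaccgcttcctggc
Krt77: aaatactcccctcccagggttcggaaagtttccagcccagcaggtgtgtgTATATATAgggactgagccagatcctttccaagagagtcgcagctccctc
These stretches lie on the minus strand at chr15:101712886-101712985 (Krt5), chr11:99389345-99389444 (Krt10), chr15:101818150-101818249 (Krt2), chr11:100193227-100193326 (Krt9) and chr15:101869686-101869785 (Krt77). The exact letters TATA were found in this window for the 4 suprabasal members shown, Krt10, Krt2, Krt77 and Krt9. They were not found for Krt5, the 1 basal member shown. In the 4 genes TATA began 28, 29, 30 and 40 bases before the start in that order, the last at the very edge of the window. Of all 32851 promoters in the table, 5.49% held it there. Looser matches were not searched. The Krt5 stretch holds ataaaa inside the window, so that Krt5 is not shown to lack a TATA-like box. Over the whole window from 250 bases before to 50 after the start, TGANTCA (the AP-1 motif) matched on either strand in 0 of 5 members and in 7.81% of all promoters. GCCNNNGGC (the AP-2 motif) matched in 1 of 5, Krt9, and in 16.6% of all promoters.

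Cells were clustered within each pair without the 8 genes, and clusters were named from other markers. Kept cells numbered 29076 in SAR131675, 24030 in control diet, 19827 in LNR and 20669 in sham, with medians of 11316, 10712, 5725 and 5851 UMIs, higher in the first pair. Basal-like clusters carried Col17a1, Itga6 and Itgb4, spinous-like clusters were led by Mt4, Il34, Skint5 or 1810037I17Rik, and granular-like clusters by Lor, Hrnr and Flg. Suprabasal-like cells below are the spinous-like and granular-like cells together, 5540, 5525, 2015 and 2298 in the order above, against 3990, 3366, 1829 and 2172 basal-like cells. The nail organ was represented by 263, 151, 174 and 176 nail-like cells led by Spink12 with Krt16 or Krt42. Of the epithelial cells, 8.07%, 9.15%, 15.7% and 16.9% fell in clusters of mixed markers and were left without a name, one of them with 393 sham cells and 5 LNR cells. The SAR131675 and control diet libraries shared 210 barcodes, LNR and sham shared 101, and libraries of different pairs shared at most 2.

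Krt5, the type II chain of the basal pair, was highest in basal-like cells among the named states of all 4 libraries. Levels are given as UMIs of the gene per 1000000 UMIs of the cell state (CPM). The assay reads the 3′ end of a transcript, so that these counts are per transcript and are not scaled by length. Krt5 stood at 5506 CPM in SAR131675 basal-like cells (interval 5485 to 5527), 6082 in control diet, 5599 in LNR and 5519.5 in sham. Cycling-like cells held 4065 to 4601 CPM, below basal-like cells in every library. Nail-like cells held 3962 to 4307 CPM and outer follicle-like cells 3736 to 4185 CPM. These last 3 states could not be fully ordered, since cycling-like cells were above nail-like cells, and nail-like above outer follicle-like cells, in 3 of 4 libraries. An unnamed cluster of the LNR pair led by Aspn, Rflnb and Krtap17-1 (142 and 164 cells) held slightly more Krt5 than basal-like cells, 5960.0 CPM in LNR and 5609 in sham.

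Krt14, the type I partner of Krt5, was the most abundant basal member. Its level in basal-like cells was 9220.4 CPM in SAR131675, 9608.5 in control diet, 8942 in LNR and 9095 in sham. Nail-like cells reached 7612, 8286, 9185 and 8845 CPM, below basal-like cells in 3 libraries and above them in LNR. These 2 states therefore could not be ordered for Krt14, whereas cycling-like cells (6946 to 7515 CPM) were below nail-like cells in 4 of 4 libraries. Sebaceous-like cells kept 2716 to 2929.9 CPM of Krt14. They held 1068 and 940.3 CPM of Krt5 in the SAR131675 pair but only 106 and 157 CPM in the LNR pair, below the endothelial and immune level of 807 and 769 CPM, so that no fold of Krt14 over Krt5 is given. The sebaceous-like cluster of the SAR131675 pair was led by Mgst1, Soat1 and Elovl6 (726 and 651 cells) and that of the LNR pair by Scd1, Serpina3b and Elovl6 (266 and 346 cells), and the part of this in the gap between pairs was not tested.

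Krt15 was highest in the outer hair follicle. Outer follicle-like cells held 5342 CPM in SAR131675, 5010.0 in control diet, 5078 in LNR and 5174 in sham. Basal-like cells held 2155, 2229, 2101 and 2237 CPM, and the outer follicle level was the higher one in all 4 libraries. The other follicle states were below basal-like cells, with 284 to 1076 CPM in infundibulum-like cells and 183 to 692 CPM in inner root sheath or hair shaft-like cells. Within the outer follicle, Krt15 ran from 2507 CPM in an LNR cluster led by Ccl27a and Aldh3a1 to 7484 CPM in a SAR131675 cluster led by Ccn1 and Atf3. An unnamed cluster of the SAR131675 pair led by Gpc6 and Krt6a held still more, 8698 and 10068 CPM. Krt15 and Krt77 were the members whose highest level lay outside the interfollicular epidermis in all 4 libraries.

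The suprabasal pair was led by Krt10, the most abundant transcript of the 8. Granular-like cells held 30794 CPM in SAR131675, 31146 in control diet, 30678 in LNR and 31314 in sham. Spinous-like cells held 21358, 22774.5, 16850.4 and 16757 CPM, lower than granular-like cells in every library. Infundibulum-like cells, from the upper follicle canal, came next with 3477 to 10384 CPM.

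Krt1, the type II partner, had no single leading state. In spinous-like cells it stood at 6118 CPM in SAR131675, 5539.9 in control diet, 4520.2 in LNR and 4438 in sham. Granular-like cells held 8325, 6808, 4061 and 5973 CPM, higher than spinous-like cells in 3 of 4 libraries. Infundibulum-like cells held 7620.5 and 7192 CPM in the SAR131675 pair and 1737 and 1802 CPM in the LNR pair. The order of these 3 states for Krt1 was therefore not the same across libraries.

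Krt2 stood above Krt1 in spinous-like and granular-like cells and was low in the infundibulum. Its level was 14198.5 to 17303 CPM in granular-like cells and 9117 to 12619.5 CPM in spinous-like cells, in that order in all 4 libraries. Infundibulum-like cells held only 280.3, 244, 203 and 313 CPM of Krt2, against 632, 649.7, 669.9 and 653 CPM in basal-like cells. Endothelial and immune cells held 438, 509, 632 and 764 CPM, so that the infundibulum-like values in every library, and the basal-like value in sham, lay below this background and are not ranked. Infundibulum-like cells thus carried Krt1 and Krt10 with little Krt2, a split that the spinous-like and granular-like states as a whole did not show. A small set of spinous-like cells rich in Krt9, described below, also held less Krt2 than Krt1 and Krt10.

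Krt77, the relative of Krt1, was the rarest member and was found mainly in the infundibulum. Infundibulum-like cells held 67.7 CPM in SAR131675, 89.0 in control diet, 118 in LNR and 143 in sham, the highest state in 4 of 4 libraries. Granular-like cells held 17.1, 15.8, 17.1 and 6.11 CPM, and spinous-like cells 1.08 to 2.17 CPM. Basal-like cells held 13, 8, 5 and 4 Krt77 UMIs in all. A Krt77 UMI was found in 11.3%, 13.9%, 19.3% and 23.2% of infundibulum-like cells (medians of 12140.5, 11477, 8722 and 8391 UMIs), against 0 to 0.254% of endothelial and immune cells (medians of 3558 to 7074 UMIs). After thinning each cell to 2000 UMIs the shares were 5.75% to 13.2% and 0 to 0.132%. Here and below, thinning left out cells with fewer than 2000 UMIs, so that thinned and unthinned shares are not over the same cells. Of the endothelial and immune cells it kept 2525 of 2845 in SAR131675, 1933 of 2218 in control diet, 2394 of 3149 in LNR and 2274 of 3030 in sham.

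Krt9 was low on average and uneven between libraries. Spinous-like cells held 263 CPM in SAR131675, 199.6 in control diet, 114 in LNR and 61.5 in sham. Granular-like cells held 43.9, 53.1, 0.543 and 103 CPM. Cycling-like cells held 17.4, 6.02, 28.2 and 60.7 CPM, close to spinous-like cells in sham, where 6 cells held 96.8% of the 880 cycling-like Krt9 UMIs. Of all Krt9 UMIs in sham, 42.8% lay in spinous-like and 26.2% in cycling-like cells. A single sham cell carried all 420 Krt9 UMIs of the sham granular-like cells, and the LNR granular-like cells held 2 UMIs in all, so that the order of these states was not settled for Krt9.

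**Figure D1:**
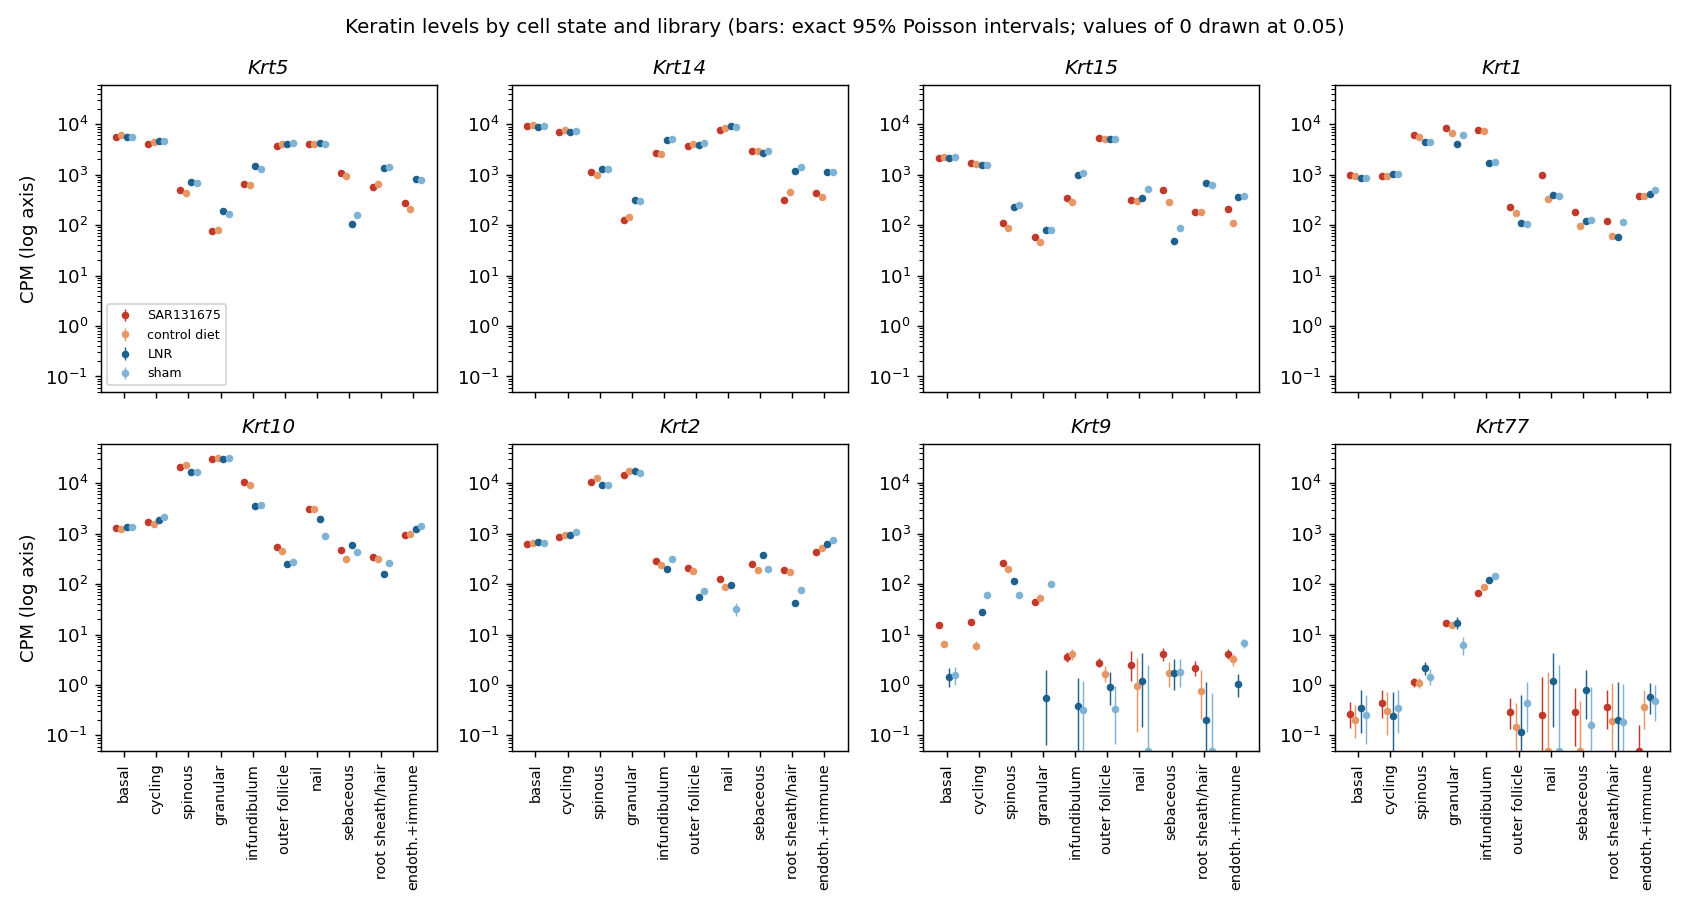
CPM of each of the 8 keratins (log axis) in 9 epithelial states and in endothelial and immune cells, 1 point per library with its exact 95% Poisson interval, values of 0 drawn at the lower edge. Krt5 and Krt14 are high in basal and nail cells, Krt15 peaks in the outer follicle, Krt10 and Krt2 peak in granular cells, and Krt77 peaks in the infundibulum at 67.7 to 143 CPM.

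Low levels of abundant keratins were also found in cells that should not make them. The 8 genes together were 0.268%, 0.255%, 0.460% and 0.492% of the UMIs of endothelial and immune cells. In fibroblast and osteogenic cells they were 0.181%, 0.166%, 0.125% and 0.141%, lower in every library. The endothelial and immune level is the background used throughout, and a value below it can still lie above the fibroblast and osteogenic level. Endothelial and immune cells held 948, 976, 1243 and 1395 CPM of Krt10, against 1311, 1251, 1345 and 1377 CPM in basal-like cells. The basal-like level of Krt10 was above this background in 3 libraries and just below it in sham. For Krt1 the endothelial and immune level was 376, 378, 417 and 500.3 CPM, against 962, 923, 863 and 849 CPM in basal-like cells, above it in every library. Depth differed between states, with medians of 12169, 11780.0, 7413 and 6880.5 UMIs in basal-like cells and 7074, 6731, 3768 and 3558 in endothelial and immune cells, so that thinned shares were compared as well. After thinning, Krt10 was seen in 66.5%, 60.4%, 53.5% and 55.4% of basal-like cells and in 45.2%, 36.6%, 26.5% and 30.5% of endothelial and immune cells, where the unthinned shares were 97.0%, 93.2%, 82.2% and 82.1% and 81.8%, 70.9%, 41.7% and 44.8%. In sham this share and the CPM run in opposite directions, and no order is read there. Conversely, Krt5 was seen in 13.3%, 12.4%, 14.7% and 14.7% of thinned granular-like cells against 16.7%, 11.6%, 19.8% and 20.1% of endothelial and immune cells (56.6%, 41.7%, 46.8% and 37.4% against 31.7%, 22.8%, 23.2% and 22.9% unthinned). The thinned share of Krt5 in granular-like cells was at or near this background in control diet and below it in the other 3 libraries, and it is not read as expression.

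Across the step from basal-like to suprabasal-like cells, Krt1, Krt2, Krt9, Krt10 and Krt77 were at least 2-fold higher and Krt5, Krt14 and Krt15 at least 2-fold lower in all 4 libraries. Among the 10153 genes with at least 100 UMIs over both states in each library, 7.32% were at least 2-fold higher and 10.5% at least 2-fold lower in all 4. Krt77, with under 100 UMIs over both states in sham, is not among the 10153, and its ratios rest on the few basal-like UMIs given above. Levels of suprabasal-like cells were 22733 CPM of Krt10 in SAR131675, 24419.9 in control diet, 18863 in LNR and 18928 in sham. The log2 ratio of Krt10 to basal-like cells was 4.12 (4.10 to 4.13), 4.29 (4.27 to 4.30), 3.81 (3.79 to 3.83) and 3.78 (3.76 to 3.80). The 2 libraries of a pair lay closer together than the pairs did, with the smaller ratio and less suprabasal-like Krt10 in the LNR pair. The direction between the pairs was not settled. With the endothelial and immune level subtracted the ratio was 5.91 in SAR131675, 6.41 in control diet and 7.43 in LNR, and sham gave none. The lower level of fibroblast and osteogenic cells was not subtracted, so that the direction under another background was not tested. Krt2 gave log2 ratios of 4.11, 4.38, 3.94 and 3.99, and 5.75, 6.53 and 8.01 with its endothelial and immune level subtracted, where sham gave none. Krt1 changed least of the abundant suprabasal members, with 2.74, 2.65, 2.37 and 2.46.

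The basal members were lower above the base. Suprabasal-like Krt5 was 435, 359.8, 637 and 608 CPM, giving log2 ratios of -3.66, -4.08, -3.13 and -3.18. For Krt14 the ratios were -3.24, -3.57, -2.95 and -2.98, and for Krt15 they were -4.38, -4.79, -3.36 and -3.29. These ratios are limited by background, taken here as the endothelial and immune level, which was above that of fibroblast and osteogenic cells. Suprabasal-like Krt15 (103, 80.5, 205 and 229 CPM) was below the endothelial and immune level (209, 111, 367 and 371 CPM) in every library, and suprabasal-like Krt5 was below it in LNR and sham (807 and 769 CPM). With that level subtracted, these gave no ratio, and Krt14 gave -4.02, -4.37, -8.40 and -7.76, so that no order among the 3 genes is read. The ratio of Krt9 ranged more widely, from 3.89 in SAR131675 to 6.08 in LNR, where basal-like cells held 21 Krt9 UMIs. Basal-like Krt9 in LNR and sham (1.44 and 1.56 CPM) was near and below the endothelial and immune level (1.02 and 6.74 CPM). Background thus limits the LNR ratio too. In sham, a single cell held 84.6% of the Krt9 UMIs of all cells that were not epithelial. The sham endothelial and immune level rests largely on that cell, so that the limit on the sham ratio was not settled. Without the spinous-like cluster led by Mt4, Fabp5 and Krt24 the SAR131675 ratio of Krt9 was 0.07 and no longer 2-fold. Krt77 gave 3.68, 4.27, 3.66 and 3.11, with intervals as wide as 1.68 to 5.03 in sham.

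**Figure D2:**
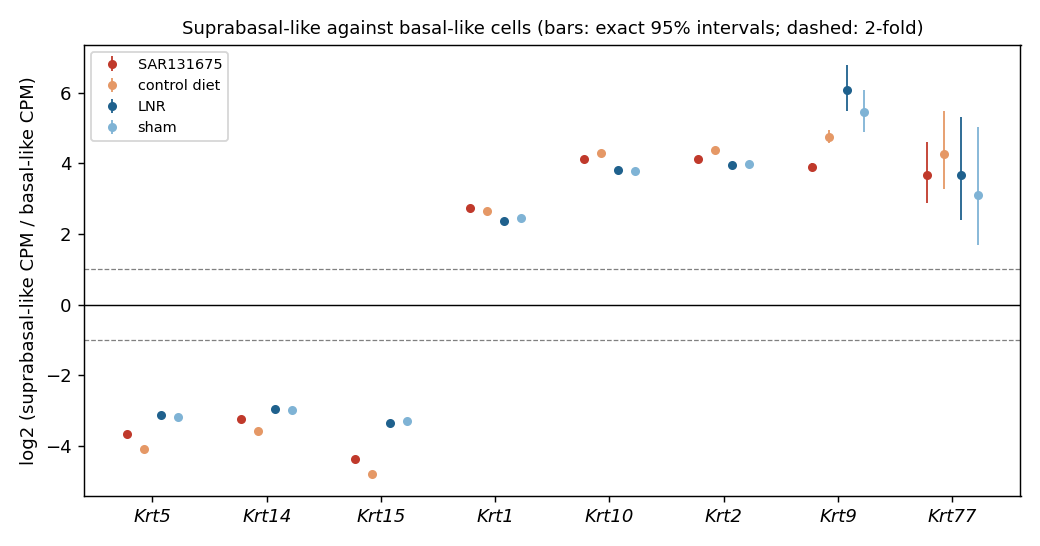
Log2 ratio of suprabasal-like to basal-like CPM for each keratin, 1 point per library with its exact 95% interval, dashed lines at 2-fold. Krt5, Krt14 and Krt15 lie between -4.79 and -2.95 and the other 5 genes between 2.37 and 6.08.

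Other genes of the same program were compared over the same step, from lists that were drawn up with earlier results of these data known. Of 11 basal adhesion genes, the anchors of the basement membrane, 10 were at least 2-fold lower in suprabasal-like cells of all 4 libraries, with the median of the list at -2.53 to -2.24 on the log2 scale. Several of these genes also served to name the basal-like state, so that this count describes the states rather than the keratins. Of 13 desmosome genes measured, 8 were higher and 2 were lower, and the list had a median of 1.38 to 1.51. The highest was Dsc1, a desmosomal cadherin of the upper layers (5.09 to 5.67), and the lower 2 were the cadherins Dsg2 (-3.31 to -2.90) and Dsg3. Dsc1 and Dsg1a, both among the higher ones, also served to name the spinous-like state, so that their rise is partly given by the naming. Of 27 regulators of epidermal differentiation, 10 were higher and 2 were lower, and the median lay at 0.34 to 0.54. Prdm1 was the highest of them (4.58 to 6.94), and the lower 2 were Trp63, the master factor of stratified epithelia, and the Notch ligand Jag2 (-4.45 to -3.34). Of 9 other epithelial keratins measured, 5 were higher and 0 lower. Krt78 led them (6.40 to 9.27), and their median was 1.68 to 1.90. Over all genes compared the median was -0.31 to -0.23.

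The switch from the basal to the suprabasal pair was also read inside single cells. For each cell with at least 20 UMIs of Krt1, Krt10, Krt5 and Krt14, the share held by Krt1 and Krt10 was taken. Its median in basal-like cells was 7.98% in SAR131675, 6.79% in control diet, 5.32% in LNR and 4.94% in sham. In spinous-like cells the median was 99.3%, 99.6%, 99.2% and 99.3%, so that most cells were close to one end. Cells between 10% and 90% made up 40.4%, 35.2%, 28.8% and 26.8% of basal-like cells and 19.6%, 18.1%, 23.9% and 23.9% of spinous-like cells. Basal-like cells above 90% were 0.255% and 0.519% in the SAR131675 pair and 1.32% and 1.72% in the LNR pair. Doublets were left in, and transcripts from other cells enter this share, and their part in the intermediate cells was not tested.

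Follicle states stood apart in this measure. Outer follicle-like cells stayed at medians of 5.45%, 3.33%, 1.75% and 2.08%. Infundibulum-like cells spread over the whole scale, with 41.1%, 40.9%, 45.5% and 48.7% of cells between 10% and 90%. Their median was 88.7% and 89.9% in the SAR131675 pair but 28.2% and 27.9% in the LNR pair. The gap between the pairs was larger than that between the libraries of a pair, and the pairs also differ in batch, depth and software version, and these cannot be told apart from the experiment.

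**Figure D3:**
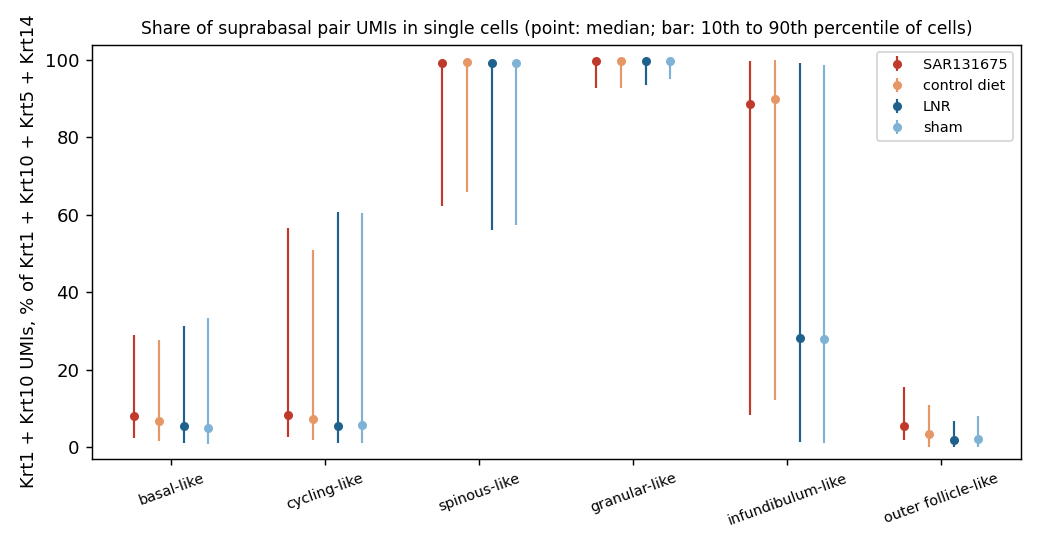
Share of Krt1 and Krt10 among the UMIs of Krt1, Krt10, Krt5 and Krt14 in single cells with at least 20 such UMIs, by state and library (point, median; bar, 10th to 90th percentile of cells). Basal-like medians lie at 4.94% to 7.98%, spinous-like medians at 99.2% to 99.6%, and infundibulum-like cells span most of the scale.

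Clusters within a state differed in their keratins. Among spinous-like cells of the SAR131675 pair, a cluster led by Mt4, Fabp5 and Krt24 kept 2545 and 2115 CPM of Krt14 with 16556 and 18728 CPM of Krt10. A second cluster, led by 1810037I17Rik, Mt4 and Serpinb12, had 169 and 69.9 CPM of Krt14 with 29753 and 30743 CPM of Krt10. The first cluster thus held both pairs and the second almost only the suprabasal one. The first also held the most Krt9 of the 4 spinous-like clusters, 1193 and 882 CPM, against 1.98 and 26.7 CPM in the second. Another spinous-like cluster, led by Skint5 and Skint6 and shallow in depth (median of 6232 UMIs), had Krt2 (10270.1 and 11496 CPM) above Krt10 (5316 and 6507 CPM), the reverse of every other spinous-like cluster.

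In the LNR pair there were 2 spinous-like clusters. One led by Mt4 and Ly6d held 2972 and 3052 CPM of Krt14 and 10112 and 10358 CPM of Krt10, against 484 and 528 CPM and 20151 and 19586 CPM in the one led by Mt4 and 1810037I17Rik. Krt9 was 238 CPM in LNR and 72.7 CPM in sham in the first of these and 53.6 and 56.5 CPM in the second.

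Basal-like clusters differed as well, and in each pair the smaller of 2 clusters held more of the suprabasal keratins. In the SAR131675 pair, the smaller one (623 and 677 cells, led by Sox6 and Igfbp3) had 2616 and 2193 CPM of Krt10, against 1041 and 987 CPM in the larger. It also held more Krt15, with 2906 and 3078 CPM against 1999 and 1991. In the LNR pair, the smaller one (566 and 584 cells, led by Fcgbp and Tgm3) had 2234 and 2538 CPM of Krt10 against 809 and 794 CPM, and 1132 and 1149.8 CPM of Krt2 against 391 and 403 CPM. The values of the larger cluster lay below the endothelial and immune level of Krt10 (1243 and 1395 CPM) and Krt2 (632 and 764 CPM), so that no fold is read. Krt9 was in the larger basal-like cluster of the SAR131675 pair (18.0 and 7.88 CPM) more than in the smaller one (3.38 and 0.940 CPM).

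The 8 genes made up nearly all keratin transcripts of the interfollicular layers. Keratins of any kind were 2.01%, 2.10%, 1.98% and 2.00% of the UMIs of basal-like cells and 4.34%, 4.72%, 3.75% and 3.75% of those of suprabasal-like cells. The 8 members held 98.4% to 98.8% of the keratin UMIs of basal-like cells and 95.3% to 96.4% of those of suprabasal-like cells. In nail-like cells the same genes held 44.4% to 49.0%. Type I UMIs exceeded type II UMIs by a factor of 1.79, 1.72, 1.74 and 1.82 in basal-like cells and 1.41, 1.38, 1.38 and 1.37 in suprabasal-like cells. The factor was lower above the base in all 4 libraries. Among partners, Krt14 exceeded Krt5 by 1.58 to 1.67 in basal-like cells, and Krt10 exceeded Krt1 by 3.53 to 4.24 in suprabasal-like cells, where Krt2 supplied further type II transcripts. As the counts are transcripts and not proteins, they do not give the balance of the chains themselves.

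Krt9 was carried by a small set of cells. Cells with at least 10 Krt9 UMIs, a limit set after values were seen, numbered 175 of 4874 spinous-like cells in SAR131675 (3.59%, Clopper-Pearson interval 3.09 to 4.15), 105 of 4564 in control diet (2.30%, 1.89 to 2.78), 26 of 1793 in LNR (1.45%, 0.949 to 2.12) and 18 of 2036 in sham (0.884%, 0.525 to 1.39). They held 98.1%, 98.7%, 97.5% and 97.3% of the Krt9 UMIs of spinous-like cells. Their Krt9 level was 6564, 7584, 6426 and 6051 CPM, against 5.23, 2.76, 2.87 and 1.69 CPM in the other spinous-like cells, a contrast set by the choice of cells on Krt9. Endothelial and immune cells held 4.14, 3.21, 1.02 and 6.74 CPM with no cell left out, and the 2 sets are therefore not ranked.

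The Krt9-rich cells differed in keratin levels from the other spinous-like cells. They held 19726, 19954, 14611 and 17086 CPM of Krt1, against 5562, 5156, 4342 and 4312 CPM in the other spinous-like cells, log2 ratios of 1.83, 1.95, 1.75 and 1.99. Krt10 was lower in them, at 7652, 9364, 10350.6 and 9046 CPM, with log2 ratios of -1.52, -1.30, -0.71 and -0.90. Krt2 was lower still, by log2 ratios of -3.55, -2.08, -1.13 and -2.68. Krt1 therefore stood above Krt10 in Krt9-rich cells of all 4 libraries, the reverse of spinous-like cells at large. These comparisons were with all other spinous-like cells and not within a cluster. In LNR, the whole spinous-like cluster led by Mt4 and Ly6d held 10112 CPM of Krt10 and 4632 CPM of Krt2, against 10350.6 and 4218 CPM in Krt9-rich cells. In sham, that cluster held 10358 and 4551 CPM, against 9046 and 1465 CPM. Basal-like cells with a Krt9 UMI after thinning also held more Krt1, with a mean of 4.91 UMIs against 1.81 in SAR131675 (54 cells with Krt9) and 6.19 against 1.73 in control diet (26 cells). In LNR and sham the means were 2.25 against 1.56 and 5.17 against 1.55, from only 4 and 6 cells with Krt9. Before thinning, a Krt9 UMI was also found in 3.13%, 1.35%, 0.286% and 0.363% of endothelial and immune cells. The part of free RNA and doublets in these basal-like cells was not tested. Of 8456 genes compared, 29 were at least 2-fold higher and 157 at least 2-fold lower in Krt9-rich cells of all 4 libraries, with Krt9, on which the cells were chosen, counted among the higher ones. Among the higher ones, chosen after their values were seen, were En1, the ventral limb homeobox gene (239, 155, 139 and 139 CPM against 26.9 to 43.7), and Igfbp5 (82.4 to 191 CPM against 6.54 to 8.31).

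**Figure D4:**
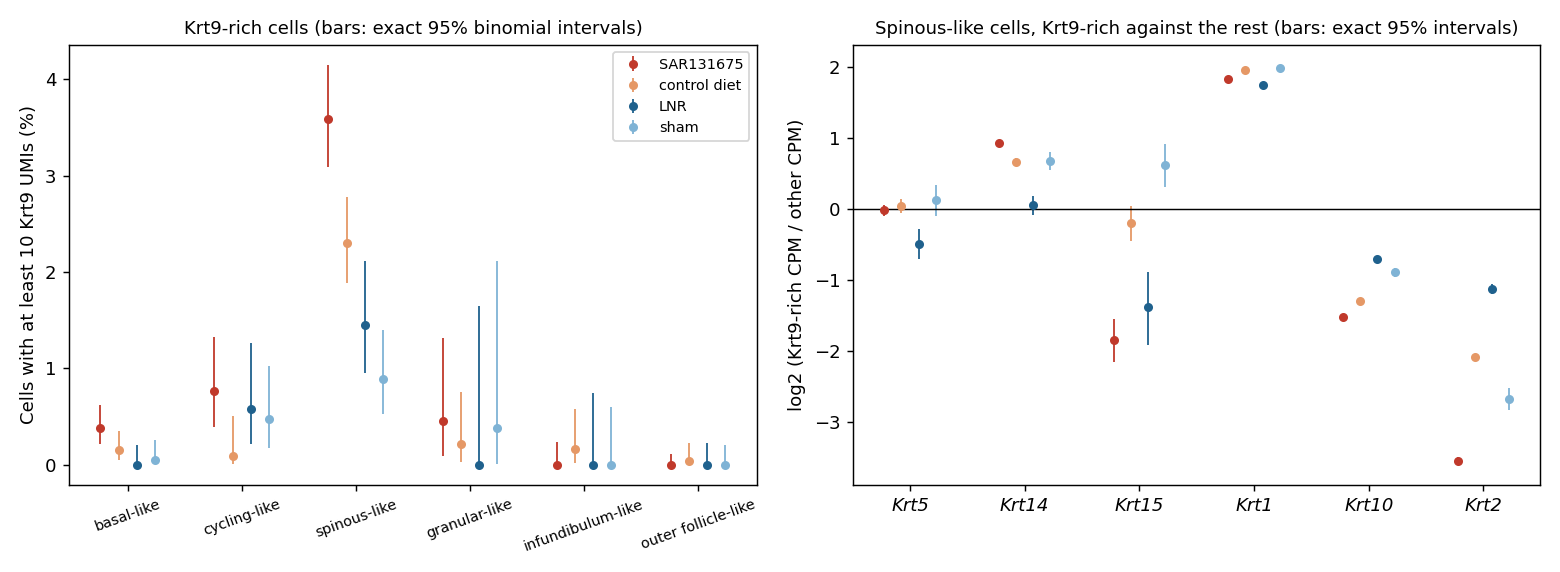
Left, percent of cells with at least 10 Krt9 UMIs in 6 epithelial states by library with exact 95% binomial intervals; right, log2 ratio of 6 of the other keratins between Krt9-rich and other spinous-like cells. Krt9-rich cells are 0.884% to 3.59% of spinous-like cells, and in them Krt1 is higher and Krt10 and Krt2 are lower in all 4 libraries.

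SAR131675 was compared with control diet to ask whether blocking VEGFR3 moved the layer keratins. In basal-like cells, 1 of the 7 members with at least 100 UMIs in the pair, Krt9, was past the limit of 0.5 on the log2 scale, where 1.69% of 12393 genes were higher and 3.57% lower by that much. Krt9 stood at 15.5 CPM in SAR131675 and 6.36 CPM in control diet, a log2 ratio of 1.29 (1.08 to 1.50). Cells with at least 10 Krt9 UMIs, 15 of 3990 against 5 of 3366, held 59.3% and 34.0% of these transcripts, so that UMIs are not independent and the interval is too narrow. With each library clustered alone the ratio was 3.72. The other 6 basal-like ratios lay between -0.14 for Krt5 and 0.07 for Krt10.

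In suprabasal-like cells 0 of 8 members were past the limit between SAR131675 and control diet, where 3.48% of 13406 genes were higher and 3.44% lower. Krt2 was 10940.2 against 13511 CPM (-0.30, interval -0.31 to -0.30), Krt10 was 22733 against 24419.9 CPM (-0.10), and Krt1 was 6439.6 against 5789 CPM (0.15). The 3 basal members were all somewhat higher in SAR131675 suprabasal-like cells, Krt15 by 0.36, Krt5 by 0.28 and Krt14 by 0.27. The endothelial and immune level of these genes differed in the same direction, with 209 against 111 CPM of Krt15, 275 against 213 of Krt5 and 432 against 359 of Krt14, and suprabasal-like Krt15 (103 against 80.5 CPM) was below that level in both libraries. With that level subtracted, the ratio of Krt5 fell to 0.12, that of Krt14 stayed at 0.27 and Krt15 gave none. The part of free RNA was not tested. In the spinous-like cluster led by Mt4, Fabp5 and Krt24, which had the most Krt14 of these clusters, Krt14 was 2545 against 2115 CPM. In the largest spinous-like cluster, led by Il34 and Ly6d, the direction was the opposite, with 1297 against 1426 CPM. Krt9 was 231 against 171 CPM (0.43, interval 0.40 to 0.46, too narrow for the same reason), with 175 against 105 Krt9-rich spinous-like cells. The ratio of Krt9 was 1.05, past the limit, without upper limits on genes and UMIs per cell, and -0.73 without the spinous-like cluster led by Mt4, Fabp5 and Krt24, which held most of these transcripts.

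The LNR library was set against sham with the same measure. In basal-like cells 0 of the 6 members with enough UMIs were past the limit, where 0.809% of 9885 genes were higher and 0.668% lower. The ratios ran from -0.09 for Krt15 (2101 against 2237 CPM) to 0.04 for Krt2 (669.9 against 653 CPM). In suprabasal-like cells 2 of 8 were past it, Krt9 and Krt77, where 0.954% of 10381 genes were higher and 1.42% lower. The other 6 lay between -0.16 for Krt15 and 0.07 for Krt5, with Krt10 at 18863 against 18928 CPM.

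Both genes past the limit were rare in that pair. Krt77 was 4.35 CPM in LNR and 2.15 CPM in sham (1.02, interval 0.55 to 1.50), which is 110 against 59 UMIs. Its larger level in infundibulum-like cells lay the other way, with 118 against 143 CPM (-0.27, interval -0.43 to -0.12). Krt9 was 97.7 against 67.6 CPM (0.53, interval 0.44 to 0.62, too narrow since 26 and 18 cells held nearly all spinous-like Krt9) in suprabasal-like cells, with 114 against 61.5 CPM in spinous-like cells and 0.543 against 103 CPM in granular-like cells. The directions of these 2 states were opposite, and the granular-like value of sham came from a single cell. With each library clustered alone the ratio of Krt9 was no longer past the limit (0.32), and without upper limits on genes and UMIs that of Krt77 was not (0.16). Granular-like Krt1 was 4061 in LNR against 5973 CPM in sham (-0.56, interval -0.59 to -0.53), from 222 and 262 cells. After thinning to 2000 UMIs, the median granular-like cell held 0 Krt1 UMIs in both libraries. A minority of cells thus carried most of these transcripts, and this interval is too narrow as well. The share of all genes past the limit was not taken in granular-like cells.

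**Figure D5:**
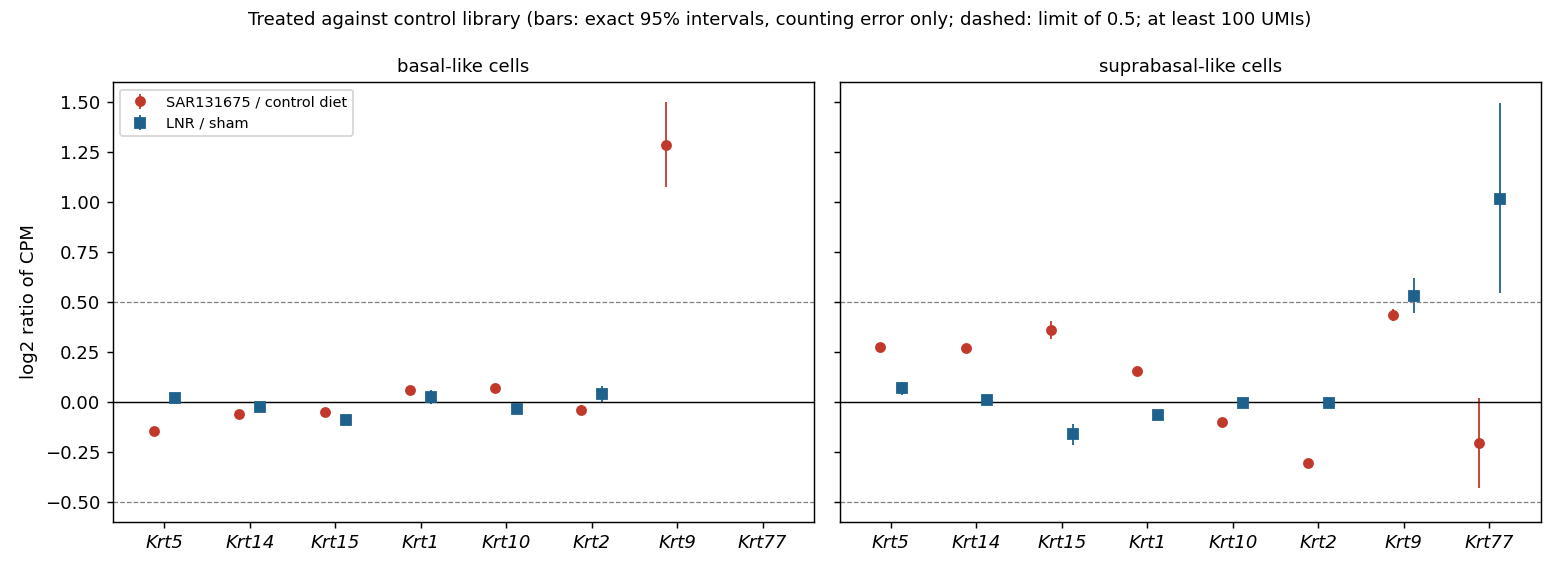
Log2 ratio of CPM between the treated and the control library of each pair, in basal-like (left) and suprabasal-like cells (right), for keratins with at least 100 UMIs, with exact 95% intervals and dashed lines at 0.5. Krt9 lies past the limit in SAR131675 basal-like cells (1.29) and in LNR suprabasal-like cells (0.53), Krt77 in the latter (1.02), and the other points lie within the lines.

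Genes of the lists around the keratins were compared in the same way. Basal adhesion genes had 0 of 11 past the limit in each direction in all 4 comparisons, with medians of -0.20 and -0.05 in SAR131675 basal-like and suprabasal-like cells and of -0.02 and -0.03 in LNR, where the medians of all genes were -0.07, -0.00, -0.02 and -0.02. Of the desmosome genes, 1 of 14 was past it in SAR131675 basal-like cells and 0 in the other comparisons (medians of -0.05, -0.14, -0.00 and -0.01). That gene was Ppl, which links desmosomes to keratin filaments (88.2 against 126 CPM, -0.52). The regulators had medians of 0.06, -0.10, 0.02 and 0.03. Among 27 of them measured in SAR131675 basal-like cells, Ehf was higher (25.1 against 14.9 CPM, 0.75). Satb1 was lower there (5.23 against 7.65 CPM, -0.55) and in suprabasal-like cells (2.46 against 3.67 CPM, -0.58), at levels of few CPM. In LNR 0 of the regulators were past the limit. Of the other epithelial keratins, 3 of 7 measured were higher in SAR131675 basal-like cells and 6 of 11 in suprabasal-like cells, where 1 was lower. In LNR, 3 of 7 were higher in basal-like cells, and in suprabasal-like cells 3 of 10 were higher and 1 lower. Their medians were 0.29, 0.91, 0.26 and 0.12. The largest of these differences were Krt6b in SAR131675 suprabasal-like cells (5.96 against 1.12 CPM) and Krt42 in LNR basal-like cells (21.5 against 1.12 CPM). Krt6b and Krt42 are also markers of nail-like cells, and the part of such cells in these differences was not tested.

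The levels of the members over the epithelial states were last compared with one another and with all other genes. Over 38 points (10 states, each in up to 4 libraries, so that points share libraries and clusters), log2 levels of Krt1 and Krt10 had a Pearson r of 0.95, those of Krt5 and Krt15 0.87 and those of Krt5 and Krt14 0.85. Krt77 followed Krt1 (0.51) more than Krt2 (0.09). Outside infundibulum-like and granular-like cells, Krt77 was at most 2.17 CPM, below the 10 CPM added before logs were taken. Its r values therefore rest on few states. The r of Krt9 with Krt2 was 0.79 over these states, although Krt2 was lower in the Krt9-rich cells that carried most Krt9 of spinous-like cells. Among 6936 genes, those most like Krt5 were Col17a1 (0.95), Ehd2 (0.94) and Mmp14 (0.94). Krt14 was most like Ehd2 (0.90), Cd59a (0.88) and Tgfbi (0.86), and Krt15 most like Gstm2, Lgals9 and Gas1 (0.95, 0.93 and 0.91). For Krt10 these were Ptgs1 (0.96), Krt1 and Calm4 (0.95), and for Krt1 Krt10, Ptgs1 (0.95) and Dusp22 (0.94). Krt2 was most like Cstdc5 (0.91), Gsta2 (0.90) and Gm20627 (0.89), and Krt9 most like Stfa1 (0.81), Commd8 (0.80) and Krt2. Krt77 was most like Cst6 (0.93), Creb3l1 (0.92) and Defb6 (0.90), values that rest on the same few states. Col17a1, Ptgs1, Cst6 and Defb6 are among the markers that named the states, so that their likeness is partly given by the naming.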

How the data were processed

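The deposited matrices hold the authors' unnormalized counts of UMIs for every gene and cell barcode, from 10x Genomics 3' libraries. The labels name Cell Ranger 6.1.2 and GRCm39. The file headers name 6.1.2 for LNR and sham and 8.0.1 for SAR131675 and control diet. Barcodes with 200 to 5500 genes, at most 30000 UMIs and at most 10% mitochondrial UMIs were kept (91.5%, 91.7%, 75.6% and 77.9% of barcodes in LNR, sham, SAR131675 and control diet), the limits the study's methods give for LNR data. SCTransform and Harmony were not repeated. Counts scaled to 10000 per cell gave 2000 variable genes without the 8 keratins, 30 components, 20 neighbors and Leiden clusters at resolution 0.7, for all cells of a pair and again for epithelial cells (Python 3.11.15 with pandas 2.3.3, scipy 1.17.1, numpy 2.4.6 and scikit-learn 1.9.0, scanpy 1.11.5 with igraph 0.11.9 and anndata 0.12.19, and matplotlib 3.10.9).

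Clusters were named from fixed marker lists (score of at least 0.3, at least 3 markers in 5% of cells, no rival above 0.75 of it). Basal was not counted as a rival of cycling, outer follicle or nail, nor spinous as a rival of granular. A cluster led by the basal score was called outer follicle-like at an outer follicle score of at least 0.4. One led by the basal or spinous score was called cycling-like at a cycling score of at least 0.5. The scoring rule was tuned after clusters, but not keratin levels, had been seen, and the keratins, lists and comparisons were chosen with earlier results of these data known. UMIs were summed per state. Intervals are exact Poisson for CPM, exact conditional for log2 ratios and Clopper-Pearson for shares, and cover counting error only. A ratio counted as past the limit at 0.5 in size with at least 100 UMIs in the pair. The genes named besides the 8 were the 3 with the highest Pearson r on log2(CPM + 10), among genes with at least 50 CPM in some state, and the extremes of the fixed lists. In simulated suprabasal-like counts, 95.0% of intervals held the true ratio over 13326 genes for SAR131675 and 95.6% over 10305 genes for LNR. These counts were drawn from the Poisson model that the intervals assume. The simulation therefore checks the computation only, and it leaves out that UMIs of a gene gather in few cells.

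Doublets were left in. Scrublet called 6.69% of SAR131675, 5.38% of control diet, 9.63% of LNR and 9.95% of sham barcodes, below the expected 23.3%, 19.2%, 15.9% and 16.5%. There were 15 alternatives, 4 of them added after the data were seen.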

Additional observations from a re-analysis of the deposited data

How the results depend on the processing

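The direction of the layer result held but its size did not: 8 of 8 keratins kept a 2-fold difference between suprabasal-like and basal-like cells in each library under every alternative that gave a value, except that SAR131675 kept 7 (Krt9, log2 ratio 0.07) without the spinous-like cluster led by Mt4, Fabp5 and Krt24. That alternative, those without the smaller basal-like cluster of each pair and without the low-depth spinous-like cluster, and another random seed for clustering were chosen after seeing the data. No such ratio changed sign. With the level of endothelial and immune cells subtracted, the LNR ratios moved from -2.95 to -8.40 for Krt14, from 3.94 to 8.01 for Krt2 and from 3.81 to 7.43 for Krt10. For the 8 genes together, that level was above the fibroblast and osteogenic one (0.460% against 0.125% of UMIs in LNR). It is therefore not read as free RNA alone. The subtraction brought 1, 2, 3 and 6 of the 8 keratins in SAR131675, control diet, LNR and sham to 0 on one side. These gave no ratio and were counted as 2-fold different. The number of keratins with the same highest state in all 4 libraries was 5, and 3 at resolution 1.2 and with each library clustered alone. Keratins past the limit between SAR131675 and control diet in suprabasal-like cells went from 0 to 1 when the upper limits on a cell's genes and UMIs were lifted (Krt9, 1.05), with the mean of each cell's CPM (Krt9, 0.50), without the spinous-like cluster led by Mt4, Fabp5 and Krt24 (Krt9, -0.73, the opposite direction), at resolution 1.2 (Krt15, 0.62) and with each library clustered alone (Krt15, 0.63), and to 2 with states from marker UMIs (Krt14, 0.58, and Krt15, 1.63). In basal-like cells the count went from 1 to 2 with each library clustered alone (Krt1, 0.55, and Krt9). It was 0 with states from marker UMIs, where Krt9 gave no ratio. Those states held only 9, 22, 1 and 3 granular-like cells in SAR131675, control diet, LNR and sham. Between LNR and sham, suprabasal-like cells went from 2 to 1 without upper limits (Krt9), with each library clustered alone (Krt77) and at a limit of 1 (Krt77). With marker UMIs the count was also 1 (Krt9), as Krt77 gave no ratio. Basal-like cells of that pair went from 0 to 1 with each library clustered alone (Krt10, 0.55). With that level subtracted, the basal-like count was 2, from Krt2 and Krt10, which came to 0 in sham and gave no ratio, and the suprabasal-like count was 3, with Krt14 added (-0.67). The cause of these changes was not tested. With the 8 genes only, the type I to type II factor of suprabasal-like cells was 1.35 in SAR131675, 1.30 in control diet, 1.32 in LNR and 1.30 in sham. Over the alternatives that gave a value, the SAR131675 ratio of Krt9 ranged from 0.99 to 3.72 in basal-like and from -0.73 to 1.05 in suprabasal-like cells, and the LNR ratio of Krt9 from 0.32 to 1.91 in suprabasal-like cells. Another random seed left the counts past the limit at 1, 0, 0 and 2. No paired analysis was possible because each condition had 1 library, and no library could be left out for the same reason. Differences in rare transcripts, Krt77 outside the infundibulum above all, were limited by low counts of UMIs.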
